A study of Mus musculus with 6 samples.

Results

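Globin and erythroid genes were followed in mast cells sorted from mouse skin. The set held 9 genes, chosen by name from the 47643 genes of the deposited count table: the beta-like globins Hbb-bs, Hbb-bt, Hbb-y and Hbb-bh1, the alpha-like globins Hba-a1, Hba-a2 and Hba-x, the heme synthesis enzyme Alas2 and the red cell anion exchanger Slc4a1. All 9 genes were present in the table. The study sequenced poly(A) RNA in 3 libraries of embryonic and 3 libraries of adult skin mast cells. Both groups came from mice described as Cdh5CreERT2, in which a tamoxifen-inducible Cre is driven by Cdh5, a gene of endothelial cells, and 4-hydroxytamoxifen was given at E7.5. Embryonic cells were taken at E16.5, are described by the submitters as descending from yolk sac hemogenic endothelium, and passed a CD45+ F4/80- CD64- c-Kit+ ST2+ gate. Adult cells are called definitive by the submitters and passed a CD45+ F4/80- CD64- c-Kit+ FceRI+ gate, after the epidermis had been removed with Dispase. The labels give no age in weeks for the adults, no strain, and no statement on pooled animals or on the use of a lineage label in the sort. Whether replicates were separate animals is not stated either, and p-values therefore rest on a between-library spread that may be technical. Age, described origin, last gate marker and tissue preparation differed together between the groups and cannot be told apart.

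Hemoglobin carries oxygen in red cells as a tetramer of alpha-like and beta-like chains, each holding a heme. In the mouse, primitive red cells made in the yolk sac use the embryonic chains encoded by Hbb-y, Hbb-bh1 and Hba-x, and definitive red cells made in the fetal liver and later in bone marrow use the adult-type chains encoded by Hbb-bs, Hbb-bt, Hba-a1 and Hba-a2. Alas2 is the erythroid form of the first enzyme of heme synthesis, and Slc4a1, also called band 3, exchanges chloride and bicarbonate across the red cell membrane. Mast cells are tissue immune cells that store histamine and proteases in granules, and oxygen transport is not among their known roles.

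The libraries held 34122162 to 46778093 counts in the embryonic group and 40662062 to 49813523 in the adult group. A floor of 3 reads corresponded to 0.0602 to 0.0879 counts per 1000000 counts (CPM). Intervals given below are 95% exact Clopper-Pearson intervals, and intervals and floors cover counting error only, because PCR reads without molecular identifiers are not independent molecules. Mast cell identity was read from 12 marker genes, of which none was at 0 in a group. Kit, the receptor in both gates, stood at 4968 ± 326 CPM (SD, n = 3) in embryonic and 5392 ± 488 CPM (SD, n = 3) in adult libraries. The 12 markers were not equal between the groups: 6 were higher in embryonic cells, 3 were higher in adult cells and 3 did not pass the test described below. Fcer1a, the antigen of the adult gate, had 762 ± 186 CPM in the adult group against 5.84 ± 1.47 CPM. CPM below are scaled by TMM, a normalization that assumes most genes unchanged on balance, and adjusted p-values are Benjamini-Hochberg values over 15111 tested genes.

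The proximal promoters are shown because the genes of each cluster lie side by side and were measured at very different levels. Each line gives the 120 bases before the RefSeq start in GRCm38.p6, written 5′ to 3′ on the gene's strand. Capitals mark matches on either strand to short forms of elements known from globin promoters: the letters GATAA for the site of GATA factors, the letters CACCC for the site of Klf1 and its relatives, the letters CCAAT for the CCAAT box and the letters TATAA for the TATA box. An entry was found for 7 of the 9 genes, without Hbb-bh1 and Slc4a1.
Hbb-bs, chr7:103827929-103828048, minus strand: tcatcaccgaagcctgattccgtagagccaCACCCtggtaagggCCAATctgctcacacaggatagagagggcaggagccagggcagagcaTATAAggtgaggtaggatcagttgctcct
Hbb-bt, chr7:103813924-103814043, minus strand: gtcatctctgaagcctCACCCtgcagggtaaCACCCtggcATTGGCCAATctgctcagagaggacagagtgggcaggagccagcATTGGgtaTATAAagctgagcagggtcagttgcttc
Hbb-y, chr7:103853208-103853327, minus strand: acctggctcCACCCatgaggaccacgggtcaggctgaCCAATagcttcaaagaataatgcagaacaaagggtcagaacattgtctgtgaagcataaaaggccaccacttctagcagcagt
Hba-a1, chr11:32283552-32283671, plus strand: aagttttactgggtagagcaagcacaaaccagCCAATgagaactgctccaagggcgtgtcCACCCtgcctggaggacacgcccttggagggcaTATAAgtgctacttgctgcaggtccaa
Hba-a2, chr11:32296372-32296491, plus strand: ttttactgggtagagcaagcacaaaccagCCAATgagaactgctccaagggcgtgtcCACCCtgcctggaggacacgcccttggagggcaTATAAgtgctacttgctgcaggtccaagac
Hba-x, chr11:32276480-32276599, plus strand: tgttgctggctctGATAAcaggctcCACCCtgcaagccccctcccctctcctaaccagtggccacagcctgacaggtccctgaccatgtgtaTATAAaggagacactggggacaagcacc
Alas2, chrX:150547297-150547416, plus strand: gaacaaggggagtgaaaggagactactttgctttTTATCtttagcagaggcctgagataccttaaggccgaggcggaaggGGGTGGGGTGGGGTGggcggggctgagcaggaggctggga
CACCC was present in 7 of 7 of these windows, against 31.7% of 32851 windows of the same length before RefSeq starts. CCAAT was found in 5 of 7 against 21.3%, TATAA in 5 of 7 against 11.8%, and GATAA in 2 of 7, those of Hba-x and Alas2, against 10.5%. The marked ATTGG runs of Hbb-bt and the marked GGGTG runs of Alas2 are CCAAT and CACCC on the opposite strand. The windows of Hba-a1 and Hba-a2 were 100% identical over 117 aligned bases, and those of Hbb-bs and Hbb-bt were 80.2% identical over 116 aligned bases. These matches describe letters in a window and were not tested as binding sites.

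In embryonic libraries the beta-like adult-type genes had the highest levels of the set. Hbb-bs (ENSMUSG00000052305.5, chr7:103826534-103828096 on the minus strand, GRCm38) encodes an adult beta chain of the single haplotype carried by the reference genome. Its reads numbered 3819, 2383 and 7003 in the embryonic libraries and 254, 115 and 58 in the adult libraries. In CPM these were 82.0, 67.5 and 146 against 5.11, 2.65 and 1.53. Every embryonic library stood above every adult library, and embryonic replicate 3 was the highest. The means were 98.6 ± 41.8 and 3.10 ± 1.83 CPM (SD, n = 3 each), a 31.3-fold difference with a log2 fold change of 4.97 ± 0.55 (SE) and an adjusted p of 0.00047 by edgeR's quasi-likelihood test. Ranked by level per kilobase of exon among all genes, Hbb-bs held ranks 431, 549 and 204 in the embryonic libraries and ranks 5910, 7715 and 9116 in the adult ones. In bulk RNA, fewer cells of a type and less RNA per cell cannot be told apart, so these levels do not say how many cells carried globin transcripts.

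Hbb-bt (ENSMUSG00000073940.3, chr7:103812524-103813996, minus strand), the neighbouring adult-type beta gene, had 1365, 857 and 2579 reads in the embryonic and 42, 15 and 20 reads in the adult libraries. Its levels were 29.3, 24.3 and 53.8 CPM against 0.845, 0.346 and 0.526 CPM. The groups did not overlap, and the order of the embryonic libraries was that of Hbb-bs. The means of 35.8 ± 15.8 and 0.572 ± 0.253 CPM (SD, n = 3 each) differed 61.4-fold, with a log2 fold change of 5.94 ± 0.44 (SE) and an adjusted p of 1.2e-05 by edgeR. By the fitted fold change, Hbb-bt ranked 116 among the 15111 tested genes, counted from the one most in favour of embryonic cells, and Hbb-bs ranked 187.

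The adult-type alpha genes followed. Hba-a1 (ENSMUSG00000069919.7, chr11:32283511-32284465, plus strand) had 1303, 691 and 2506 reads in the embryonic libraries and 120, 66 and 15 reads in the adult libraries. In CPM it stood at 28.0, 19.6 and 52.3 against 2.41, 1.52 and 0.395. No adult library reached the lowest embryonic one. The means were 33.3 ± 17.0 and 1.44 ± 1.01 CPM (SD, n = 3 each), 22.6-fold apart, with a log2 fold change of 4.49 ± 0.69 (SE) and an adjusted p of 0.0018 by edgeR. This was the smallest fold change of the 5 genes of the set that could be tested.

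Hba-a2 (ENSMUSG00000069917.7, chr11:32296489-32297298, plus strand), which encodes the same kind of adult alpha chain, had 1033, 603 and 2022 reads against 69, 16 and 25. These corresponded to 22.2, 17.1 and 42.2 CPM against 1.39, 0.369 and 0.658 CPM. Again the groups were separate and embryonic replicate 3 was the highest. The means of 27.2 ± 13.3 and 0.805 ± 0.525 CPM (SD, n = 3 each) were 33.1-fold apart, with a log2 fold change of 5.05 ± 0.57 (SE) and an adjusted p of 0.00026 by edgeR. Adult replicate 1, the highest adult library for both alpha genes, moved these values most: without it the log2 fold change was 5.08 for Hba-a1 and 5.73 for Hba-a2.

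Alas2 (ENSMUSG00000025270.13, chrX:150547375-150570638, plus strand), the enzyme that joins glycine and succinyl-CoA in erythroid mitochondria, had 590, 352 and 1273 reads in embryonic and 33, 21 and 5 reads in adult libraries. Its levels were 12.7, 9.97 and 26.6 CPM against 0.664, 0.485 and 0.132 CPM. It kept the order of the adult-type globins among the embryonic libraries, with replicate 3 highest and replicate 2 lowest. The means of 16.4 ± 8.90 and 0.427 ± 0.271 CPM (SD, n = 3 each) differed 37.2-fold, with a log2 fold change of 5.22 ± 0.59 (SE) and an adjusted p of 0.00016 by edgeR. Its span overlaps Apex2 and Mir3620 on the other strand, and the counting was unstranded, so reads from the shared stretch could not be assigned by strand.

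Of the 9 genes, 5 passed the filter on low counts, and these 5 were called higher in embryonic cells at an adjusted p under 0.05 by edgeR. The same call was made for 31.2% of all tested genes, a call in favour of adult cells for 31.7%, and a call in either direction for 63.0%. A call together with a difference of at least 16-fold in favour of embryonic cells, which each of these 5 met, was made for 2.10% of tested genes, and the median log2 fold change over all tested genes was -0.02. Groups that did not overlap, higher in embryonic, were seen for 34.5% of tested genes. Because a gene low in both groups could not pass the filter, the 5 tested genes do not stand for the set as a whole.

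**Figure D1:**
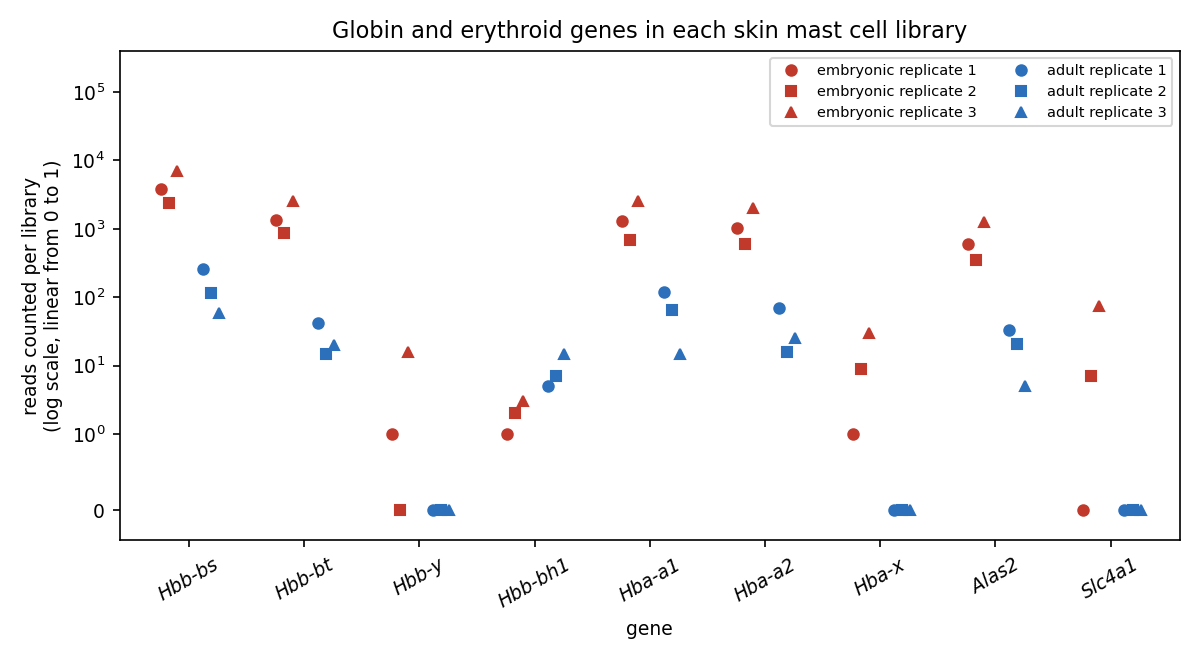
Reads counted in each library for the 9 genes, on a log axis that is linear between 0 and 1, with 1 point per library in red for embryonic and blue for adult skin mast cells. The 4 adult-type globins and Alas2 lie between 352 and 7003 reads in the embryonic libraries and between 5 and 254 reads in the adult ones, while the embryonic globins and Slc4a1 reach at most 74 reads.

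The embryonic globins and Slc4a1 were too low to pass the filter and are given as reads. Hbb-y (ENSMUSG00000052187.3, chr7:103851745-103853240, minus strand), the epsilon-like chain of primitive red cells, had 1, 0 and 16 reads in the embryonic libraries and 0 in each adult library. Its 17 embryonic reads were at least 6.06-fold above the floor of 3 reads over the adult group, 16 of them lay in replicate 3, and the groups overlapped at 0 (exact two-sided permutation p = 0.40).

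Hba-x (ENSMUSG00000055609.8, chr11:32276400-32278116, plus strand), the zeta-like chain that pairs with embryonic beta chains, had 1, 9 and 30 reads in embryonic libraries and 0 in each adult library. The groups did not overlap, and the sum of 40 reads was at least 14.3-fold above the adult floor (exact two-sided permutation p = 0.10, the smallest that 3 against 3 libraries allow). Slc4a1 (ENSMUSG00000006574.15, chr11:102348824-102366203, minus strand) had 0, 7 and 74 embryonic reads and 0 in each adult library. Its 81 reads were at least 28.9-fold above the adult floor, but embryonic replicate 1 was at 0 like the adult libraries (exact two-sided permutation p = 0.40).

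Hbb-bh1 (ENSMUSG00000052217.5, chr7:103841636-103843164, minus strand), the beta-h1 chain of primitive red cells, went the other way. It had 1, 2 and 3 reads in the embryonic libraries and 5, 7 and 15 in the adult libraries. The groups did not overlap and the adult ones were higher, a state seen for 35.5% of tested genes. The 27 adult reads were 4.20-fold the 6 embryonic reads after scaling (interval 1.70 to 12.5), with an exact two-sided permutation p of 0.10. In a fit of every gene with at least 1 read, edgeR gave Hbb-bh1 a log2 fold change of -2.11 and an adjusted p of 0.12, which did not pass. In that fit Hbb-y, Hba-x and Slc4a1 passed in favour of embryonic cells, with adjusted p-values of 0.013, 6.1e-05 and 1.2e-07. Their adult groups were at 0, so the fitted fold changes depend on the prior count and are no measure of size. Most embryonic reads of Hbb-y, Hba-x and Slc4a1 lay in replicate 3, and for Hbb-y and Slc4a1 the groups overlapped at 0. Adjusted p-values of this fit also shifted with the filter, from 1.2e-05 to 5.1e-52 for Hbb-bt and from 0.00047 to 0.0054 for Hbb-bs by edgeR. They are therefore no measure of agreement between libraries.

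Compared per kilobase of exon, Hbb-bs led the set in each of the 6 libraries, with 114 ± 48.5 CPM per kilobase (SD, n = 3) in embryonic cells. Hbb-bt was next in each embryonic library at 50.9 ± 22.5, although its range of 34.5 to 76.5 overlapped those of the alpha genes. Hba-a1 at 41.0 ± 20.9 and Hba-a2 at 40.7 ± 19.9 changed places between libraries and did not differ beyond their spread. Alas2 stood below these 4 in each embryonic library at 6.83 ± 3.70 (SD, n = 3). Below it came Hba-x, Hbb-y, Slc4a1 and Hbb-bh1 at means of 0.321, 0.179, 0.119 and 0.0764 CPM per kilobase, whose order changed from library to library. In adult libraries Hbb-bs at 3.59 CPM per kilobase was followed by Hba-a1, Hba-a2 and Hbb-bt at 1.78, 1.21 and 0.814, which changed places among libraries, and then by Hbb-bh1 at 0.357 and Alas2 at 0.178.

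These levels carry the limits of near-identical copies, since reads aligned to several places were not counted. The transcripts of Hba-a1 and Hba-a2 were 99.8% identical over 538 aligned bases, and 67.5% of the 50-base windows of Hba-a1 and 86.9% of those of Hba-a2 occurred in the other gene. Hbb-bs and Hbb-bt were 93.1% identical over 625 aligned bases, and 65.8% and 58.3% of their windows were shared. Levels of these 4 genes, and the split within each pair, are therefore uncertain. Hbb-y, Hbb-bh1 and Hba-x shared 0 such windows with another gene of the set.

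Summed over the 7 globins, reads numbered 7523, 4545 and 14159 in embryonic and 490, 219 and 133 in adult libraries. These sums made up 0.0167%, 0.0133% and 0.0303% of all gene counts against 0.000984%, 0.000494% and 0.000327%. The highest embryonic library was 2.29 times the lowest, the highest adult library was 2.82 times the lowest, and the lowest embryonic library was 13.1 times the highest adult one. The mean summed level of 195 ± 88.3 CPM in embryonic cells was 31.8-fold that of 6.14 ± 3.31 CPM in adult cells (SD, n = 3 each, exact two-sided permutation p = 0.10). Without embryonic replicate 3 the ratio was 23.7-fold.

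Within the beta-like globins, the embryonic chains Hbb-y and Hbb-bh1 together made up 0.0386%, 0.0617% and 0.198% of reads in the embryonic libraries. In the adult libraries their share was 1.66% (interval 0.542 to 3.83), 5.11% (2.08 to 10.2) and 16.1% (9.32 to 25.2). The share was thus higher in every adult library, at 7.63 ± 7.56% against 0.0994 ± 0.0861% (SD, n = 3 each, exact two-sided permutation p = 0.10). The adult values rest on 301, 137 and 93 beta-like reads, and their embryonic part consists of Hbb-bh1 alone. Adult replicate 3 had the most Hbb-bh1 and the fewest Hbb-bs reads, and without it the difference of means shrank from -7.53 to -3.29 percentage points. Hbb-y alone gave 0.0193%, 0% and 0.167% in embryonic libraries. For its count of 0 in the adult libraries the intervals reach 1.22%, 2.66% and 3.89%. A difference in the share of Hbb-y was therefore not detectable at this depth.

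Within the alpha-like globins, Hba-x made up 0.0428%, 0.691% and 0.658% of reads in the embryonic libraries. The adult libraries had 0 of 189, 82 and 40 alpha-like reads, which allows shares of up to 1.59%, 3.66% and 7.5%, so no difference was detectable there either. The embryonic chains thus made up at most 0.691% of alpha-like and 0.198% of beta-like reads in an embryonic library.

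The adult-type genes kept close proportions in the embryonic libraries and looser ones in the adult libraries. Hbb-bt took 26.3%, 26.5% and 26.9% of the reads of Hbb-bs and Hbb-bt in embryonic libraries, and 14.2% (interval 10.4 to 18.7), 11.5% (6.60 to 18.3) and 25.6% (16.4 to 36.8) in adult ones. The groups did not overlap, at 26.6 ± 0.309% against 17.1 ± 7.495% (SD, n = 3 each, exact two-sided permutation p = 0.10). Hba-a2 took 44.2%, 46.6% and 44.7% of the reads of its pair in embryonic libraries and 36.5%, 19.5% and 62.5% of 189, 82 and 40 reads in adult ones, and the groups overlapped (exact two-sided permutation p = 0.70). Alpha-like genes made up 33.1%, 30.7% and 34.2% of the length-scaled globin level in embryonic and 41.0%, 38.8% and 31.8% in adult libraries (exact two-sided permutation p = 0.30). The exon length was not corrected for stretches shared within each pair, whose reads were not counted. The true balance of alpha-like and beta-like levels is therefore uncertain.

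Set against Hbb-bs in the same library, Alas2 had 15.4, 14.8 and 18.2 reads per 100 Hbb-bs reads in embryonic cells and 13.0, 18.3 and 8.62 in adult cells. The ranges of both groups overlapped. Slc4a1 had 0, 0.294 and 1.06 reads per 100 Hbb-bs reads in the embryonic libraries, while Hbb-bt, Hba-a1 and Hba-a2 stayed within 25.3 to 36.8. Hbb-bh1 moved from 0.0262, 0.0839 and 0.0428 per 100 in embryonic to 1.97, 6.09 and 25.9 per 100 in adult libraries.

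**Figure D2:**
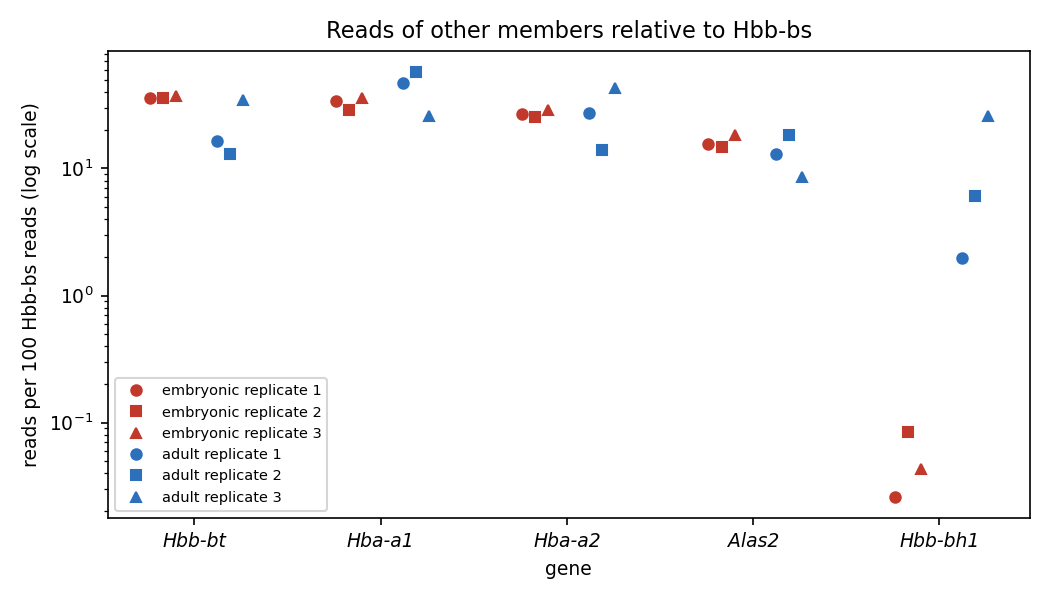
Reads of 5 genes per 100 Hbb-bs reads of the same library, on a log axis, with 1 point per library in red for embryonic and blue for adult cells. Hbb-bt lies between 35.7 and 36.8 in the embryonic libraries and between 13.0 and 34.5 in the adult ones, and Hbb-bh1 is below 0.1 in embryonic libraries and at 1.97 to 25.9 in adult libraries.

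Embryonic replicate 3 held 37.1% of all embryonic reads but a larger part of the reads of most genes of the set. It held 53.0% of Hbb-bs (interval 52.2 to 53.9), 53.7% of Hbb-bt, 55.7% of Hba-a1, 55.3% of Hba-a2 and 57.5% of Alas2 reads. For Hba-x the share was 75.0% (58.8 to 87.3), for Slc4a1 91.4% (83.0 to 96.5) and for Hbb-y 94.1% (71.3 to 99.9). By contrast, Klf1 at 41.2% and Gypc at 40.1% lay near the share of all reads, as did the mast cell genes Kit at 36.6% and Cpa3 at 37.6%. Keratinocyte genes were also concentrated in this library, with 82.8% of Krt1 and 82.8% of Lor reads. Without embryonic replicate 3 the 5 tested genes kept their calls by edgeR, with log2 fold changes of 4.62 for Hbb-bs, 5.57 for Hbb-bt, 4.06 for Hba-a1, 4.63 for Hba-a2 and 4.73 for Alas2. Without it, Hbb-y was left with 1 embryonic read, Hba-x with 10 and Slc4a1 with 7.

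**Figure D3:**
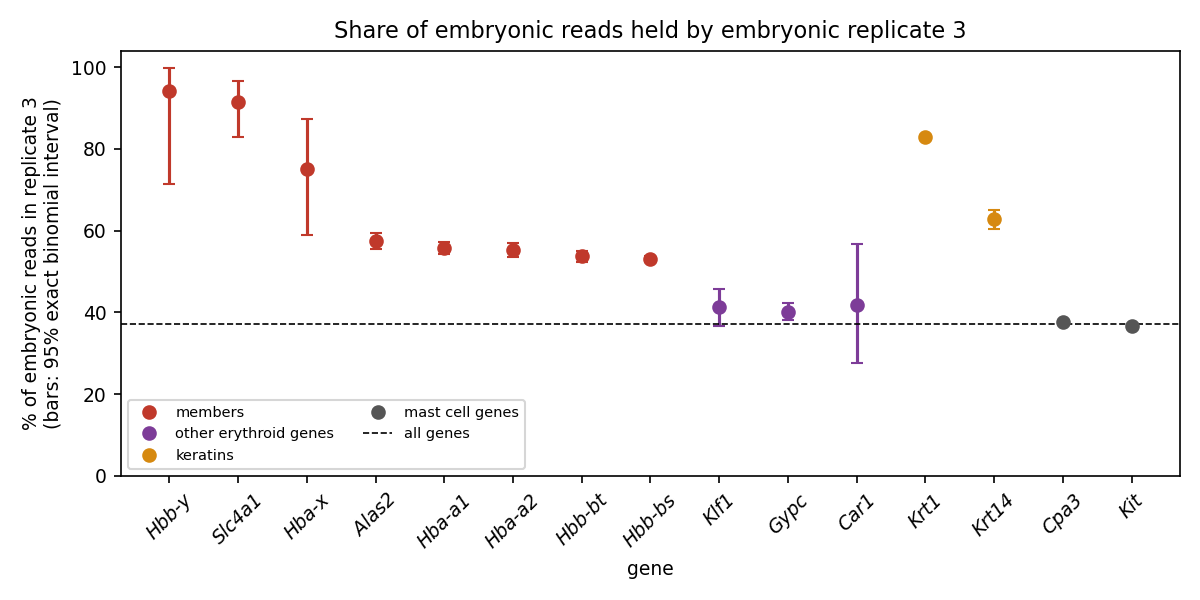
Percentage of the reads of the 3 embryonic libraries that lay in embryonic replicate 3, per gene, with 95% exact binomial intervals as bars and the 37.1% of all genes as a dashed line. Hbb-y, Slc4a1 and Hba-x lie at 75.0% to 94.1%, Alas2 and the adult-type globins at 53.0% to 57.5%, and Klf1, Gypc, Cpa3 and Kit at 36.6% to 41.2%.

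Markers of other cells were read in the same libraries. Summed over 8 keratinocyte genes, the embryonic libraries had 67.4, 136 and 650 CPM and the adult libraries 35.4 to 59.8 CPM, with none of the 8 at 0 in a group. By edgeR 3 of the 8, Krt1, Krt10 and Lor, were called higher in embryonic cells. Col17a1 was the 1 gene called higher in adult cells, and 4 did not pass. Like the genes of the set, the keratinocyte sum was highest in embryonic replicate 3. It was lowest in replicate 1, as were Hba-x, Hbb-bh1 and Slc4a1, while the adult-type globins and Alas2 were lowest in replicate 2. The sum over 7 fibroblast genes was 573 to 713 CPM in the embryonic libraries against 96.7 to 527 CPM in the adult libraries. By edgeR, however, 0 of these 7 genes were called higher in embryonic cells, 1, Dcn, was higher in adult cells and 6 did not pass. Each of these 2 counts of calls changed in 8 of 17 alternatives. The sum over 14 platelet genes was 124 to 181 CPM against 870 to 1158 CPM in the same order, and Pf4 and Ttr, which mark platelets and liver or plasma and were singled out after their values were seen, had 100% and 94.1% of their 17 embryonic reads each in replicate 3. Summed over 12 neutrophil genes, levels were 1.65 to 2.04 CPM with 6 genes at 0 in the embryonic group, and 2.29 to 3.46 CPM with 2 genes at 0 in the adult group. Summed over 9 liver and plasma genes, levels were 6.16 to 9.72 CPM with 3 genes at 0 in the embryonic group, and 2.34 to 5.53 CPM with 4 at 0 in the adult group. The part of such cells or of free RNA in the globin result was not tested.

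Genes of heme synthesis gave a background for Alas2. All 14 genes of this list, Alas2 among them, were tested, of which 9 were higher in embryonic cells, 3 were higher in adult cells and 2 did not pass, with a median log2 fold change of 0.73 beside -0.02 over all genes. Over all tested genes, the shares called were 31.2% in favour of embryonic and 31.7% in favour of adult cells. These lists were not tested as sets. Alas1, the housekeeping form of the first enzyme, was higher in adult cells, at 80.5 ± 10.3 against 14.6 ± 0.472 CPM (log2 fold change -2.46, adjusted p = 1.6e-07 by edgeR). Per length, Alas2 made up 60.7%, 56.0% and 76.1% of both forms in embryonic libraries and 1.71%, 0.995% and 0.273% in adult libraries. The groups were far apart, at 64.2 ± 10.5% against 0.992 ± 0.717% (SD, n = 3 each, exact two-sided permutation p = 0.10).

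Among the later enzymes, Cpox, coproporphyrinogen oxidase, was 4.21-fold higher in embryonic cells (mean 46.0 ± 6.82 against 10.9 ± 0.540 CPM, adjusted p = 9.6e-07 by edgeR). Uros, uroporphyrinogen synthase, was 3.67-fold higher (adjusted p = 1.2e-05 by edgeR). Fech, which inserts iron into the ring, stood at 346 ± 53.5 against 161 ± 9.63 CPM (adjusted p = 3.5e-05 by edgeR). The fold changes of these 3 enzymes ran from 2.15 to 4.21, beside 37.2 for Alas2, and the differences between genes were not tested. Tmem14c, a mitochondrial porphyrin carrier, was 1.91-fold higher in embryonic cells (adjusted p = 6.7e-05 by edgeR), while the mitochondrial iron importer Slc25a28 was 2.70-fold and the transporter Abcb10 1.41-fold higher in adult cells (adjusted p = 5.5e-05 and 0.0035 by edgeR). Slc25a37, the iron importer used in red cell precursors and named after its values were seen, stood at 10.3 ± 3.26 against 8.16 ± 1.37 CPM and did not pass (adjusted p = 0.24 by edgeR).

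Genes of heme breakdown and transport were read next. Of 15 genes 12 were tested, 1 was higher in embryonic cells, 8 were higher in adult cells and 3 did not pass, with a median log2 fold change of -1.35, beside 31.2% and 31.7% of all tested genes called in those directions. Pgrmc1, a heme-binding membrane protein, was at 892 ± 151 against 152 ± 12.8 CPM in favour of adult cells (adjusted p = 3.2e-07 by edgeR). The heme exporter Flvcr1 was 4.82-fold and the endosomal heme transporter Slc48a1 1.94-fold higher in adult cells (adjusted p = 4.4e-06 and 5.1e-05 by edgeR). Cd163, the macrophage receptor for hemoglobin bound to haptoglobin, had 15.6 ± 2.77 CPM in the adult group against 0.0419 ± 0.0551 CPM (adjusted p = 6.1e-07 by edgeR). Pgrmc2, a heme chaperone, was the gene higher in embryonic cells, by 1.52-fold (adjusted p = 0.0029 by edgeR), and Blvra, which reduces biliverdin, did not pass (log2 fold change -0.13, adjusted p = 0.28 by edgeR).

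Components of the red cell membrane and skeleton were called in both directions. Of 20 listed genes, Slc4a1 among them, 12 were tested, 5 were higher in embryonic cells, 2 were higher in adult cells and 5 did not pass, with a median log2 fold change of 0.63, beside 31.2% and 31.7% of all tested genes. Gypc, glycophorin C, which anchors the skeleton, had 788, 571 and 910 embryonic and 50, 49 and 16 adult reads and was 20.1-fold higher in embryonic cells (adjusted p = 2.2e-06 by edgeR). Epb41, protein 4.1 of the skeleton, was 2.26-fold, the transporter-like Xk 5.19-fold and the adhesion molecule Icam4 1.66-fold higher in embryonic cells (adjusted p = 7.7e-06, 0.00056 and 0.0032 by edgeR). The actin-capping Tmod1 was 4.36-fold and the glucose transporter Slc2a1 3.30-fold higher in adult cells (adjusted p = 0.0026 and 3e-07 by edgeR). Rhag, of the Rh complex, was left out by the filter and is given after its values were seen, with 1, 1 and 7 embryonic and 0 adult reads. Like Slc4a1 it was highest in embryonic replicate 3.

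Of 23 red cell enzymes and late erythroid genes, 22 were found, without Ahsp, and 17 were tested. Of these, 6 were higher in embryonic cells, 5 were higher in adult cells and 6 did not pass, with a median log2 fold change of 0.19. These shares were near the 31.2% and 31.7% called over all tested genes. Prdx2, a peroxidase abundant in red cells, was at 103 ± 8.83 against 36.0 ± 1.83 CPM in favour of embryonic cells (adjusted p = 1.3e-06 by edgeR). The erythropoietin receptor Epor was 2.46-fold and the exonuclease Isg20 7.12-fold higher (adjusted p = 7.1e-05 and 5.9e-06 by edgeR). Aplnr, the apelin receptor, had 2.58 ± 1.49 CPM in the embryonic group against 0.0242 ± 0.0232 CPM (adjusted p = 5.7e-05 by edgeR). Tspan33, a tetraspanin of red cell precursors, was 5.31-fold, the ubiquitin-conjugating Ube2l6 1.77-fold, Bpgm, which makes bisphosphoglycerate, 1.38-fold and the mitophagy receptor Bnip3l 1.28-fold higher in adult cells (adjusted p = 0.0015, 0.00088, 0.017 and 0.033 by edgeR). The number higher in adult cells was 2 at an adjusted p under 0.01, 2 without embryonic replicate 2, and 3 without embryonic replicate 1, adult replicate 2 or adult replicate 3.

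**Figure D4:**
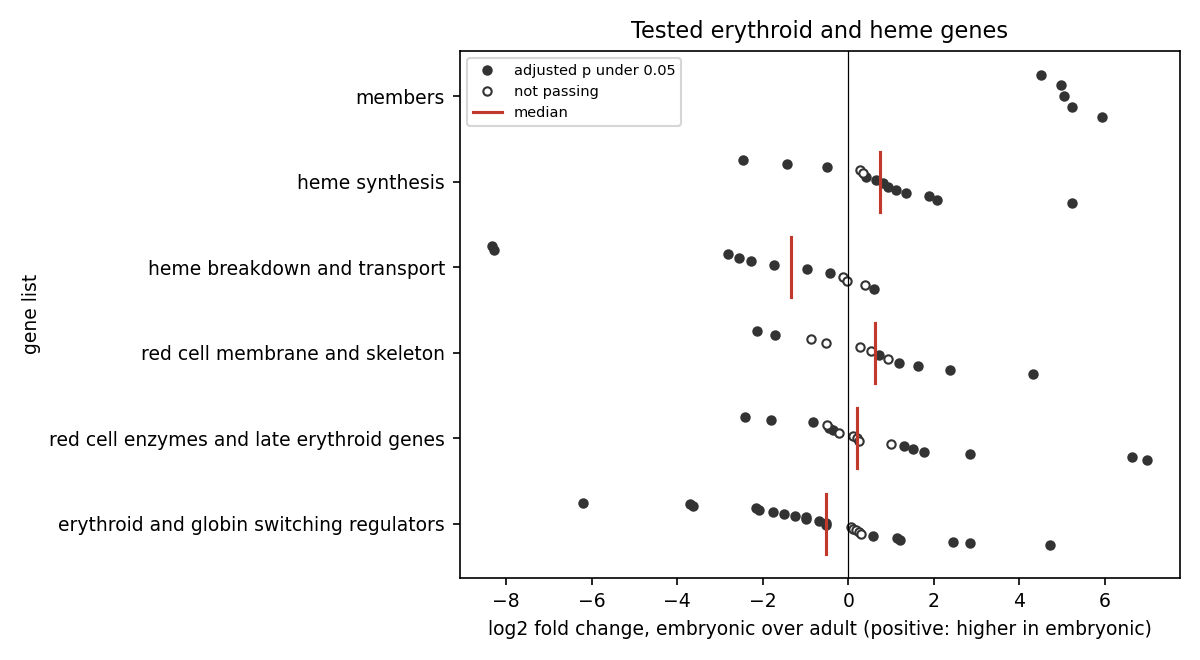
Log2 fold change, embryonic over adult, of each tested gene in the set and in 5 lists of erythroid and heme genes, with filled points for an adjusted p under 0.05, open points for genes that did not pass and a red line at each list's median. The 5 tested genes of the set lie at 4.49 to 5.94, and the list medians lie between -1.35 and 0.73. Points of Car1 and Hpx, whose reads were 0 in adult and in embryonic libraries, are fitted values and no measure of size, and the medians do not depend on them.

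Regulators of erythroid genes and of the switch between globin chains were called in both directions. Of 25 listed genes 24 were tested, 6 were higher in embryonic cells, 13 were higher in adult cells and 5 did not pass, with a median log2 fold change of -0.53, beside 31.2% and 31.7% of all tested genes. Klf1, the factor that binds CACCC elements of the adult beta gene, had 193, 87 and 196 embryonic reads against 11, 6 and 1 adult reads. The means of 3.57 ± 0.955 and 0.129 ± 0.0978 CPM differed 26.3-fold (adjusted p = 6.7e-05 by edgeR). Gata1, which acts in red cells and mast cells alike, was 2.20-fold higher in embryonic cells (157 ± 21.1 against 71.5 ± 5.32 CPM, adjusted p = 2e-05 by edgeR).

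Bcl11a, a repressor of embryonic globin chains, had 4.84 ± 0.430 CPM in the embryonic group against 0.677 ± 0.284 CPM (adjusted p = 9.6e-05 by edgeR). The cell cycle factor E2f2 was 5.47-fold and the progenitor factor Myb 1.48-fold higher in embryonic cells (adjusted p = 3.7e-06 and 0.00075 by edgeR). Zbtb7a, another repressor of embryonic-type chains, was 2.38-fold higher in adult cells (adjusted p = 3.7e-06 by edgeR). Lmo2, a bridge in the complex of Gata1 and Tal1, was 13.0-fold, Klf3 4.29-fold and Mbd2, which binds methylated DNA, 1.99-fold higher in adult cells (adjusted p = 1.8e-08, 3e-07 and 8.5e-06 by edgeR). Klf2, a factor of primitive red cells and of endothelium, had 511 ± 126 CPM in the adult group against 6.92 ± 4.30 CPM (adjusted p = 0.00014 by edgeR).

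Of 8 globin genes outside the set 2 could be tested, and both were higher in adult cells, which was the call for 31.7% of all tested genes. Adgb, androglobin, was at 27.4 ± 3.95 against 4.49 ± 0.885 CPM (adjusted p = 1.7e-06 by edgeR), and Ngb, neuroglobin, at 0.576 ± 0.219 against 0.0330 ± 0.0205 CPM (adjusted p = 0.0007 by edgeR). Mb, myoglobin, had 0 reads in each embryonic library and 313, 21 and 1 in the adult libraries. Hbq1a and Hbq1b, the theta-like genes of the alpha cluster, named after their values were seen, had 1 and 3 embryonic reads in all and 0 adult reads, and Hbb-bh0 and Hbb-bh2 had 0 in each of the 6 libraries.

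Neighbours of the clusters were read for the same stretch of chromosome. Nprl3, whose introns hold the major enhancers of the alpha-globin genes, did not pass the test, with 20.5 ± 1.48 CPM in the embryonic against 20.7 ± 2.25 CPM in the adult group (log2 fold change -0.01 ± 0.13 SE, adjusted p = 0.95 by edgeR). Mpg, a DNA glycosylase gene overlapping it, was higher in adult cells at 8.11 ± 0.351 against 4.24 ± 0.341 CPM (adjusted p = 0.0016 by edgeR). Around the beta-like genes, the olfactory receptor genes Olfr64, Olfr66, Olfr67, Olfr68 and Olfr69 had 0 reads in each library. Nprl3, Mpg and these receptors lie within 50 kilobases of the clusters.

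Across the 6 libraries, Pearson's r with the summed globins, on log2(CPM + 0.5), was at least 0.95 for 2099 of the 15111 tested genes. The 8 genes outside the set with the highest r were Atp5d, Pif1, Nectin2, Gdpgp1, Lamtor5, Arhgef19, Mblac1 and Alkbh4, at 0.998 to 0.999. The points are 3 libraries of each group, so a gene that differs between the groups reaches a high r, and the value is given as a description. Their fold changes were smaller than those of the set, from 1.74-fold for Lamtor5 to 13.7-fold for Arhgef19.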

How the data were processed

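RNA-seq counts of 6 libraries of sorted skin mast cells were used as deposited. The authors made these gene counts with featureCounts 1.5.0-p1, per the file headers, from exons of GENCODE M9 without strand (setting 0), leaving out duplicates where marked, and reads aligned to several places or to several genes were not counted. Per the labels' protocols, cDNA was made with SMART-Seq v4 and tagmented with Nextera XT, which does not mark strand. Per the submitters' processing notes, the aligner was STAR, the build GRCm38 (mm10) and a further tool edgeR, in versions not given in the sources used here.

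Symbols were matched by gene ID to GENCODE M21, with 47224 matched and 419 not. All 6 sample columns were used and 0 belonged to other samples. The members and lists were chosen with earlier results of these data known. The test was edgeR 4.0.16 in R 4.3.3 (TMM, filterByExpr at its minimum count of 10, glmQLFit with robust estimation, glmQLFTest), fitted on the whole table, threshold 0.05. The filter kept 15111 genes. Shares and summed levels were compared by exact two-sided permutation tests over libraries with SciPy 1.17.1. Within groups, the chi-square per degree of freedom between libraries was 37.8 to 99.2, so no library was a copy of another. Named in each list were the 4 smallest adjusted p-values under 0.05 per direction and the 3 most abundant genes per length, and, by likeness, 8 genes with a mean of at least 1 CPM. A few of the genes so named are not reported here. Alternatives were RLE and upper quartile scaling, other filters, DESeq2 1.42.0, limma-voom (limma 3.58.1), no robust estimation, a replicate block, close copies summed, members left out of library sizes, a threshold of 0.01 and leaving out each library. Promoter windows came from RefSeq for GRCm38.p6.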

Additional observations from a re-analysis of the deposited data

How the results depend on the processing

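The log2 fold changes of Hbb-bs, Hbb-bt, Hba-a1, Hba-a2 and Alas2 kept their direction and their call in 78 of 78 alternatives. Leaving out each library gave 4.62 to 5.54 for Hbb-bs, 5.57 to 6.36 for Hbb-bt, 4.06 to 5.08 for Hba-a1, 4.63 to 5.73 for Hba-a2 and 4.73 to 5.68 for Alas2. The number of genes of the set called higher in embryonic cells was 5, but 8 among genes with at least 1 count, where more genes are tested, and 3 with close copies summed, where each pair counts as 1 gene. The difference in the embryonic share of beta-like reads, -7.53 percentage points, was 0.06 with Hbb-y alone, which leaves out the Hbb-bh1 reads. Leaving out each library gave -10.52 to -3.29 for it.

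Same-numbered embryonic and adult libraries did not deviate together from their group means (r = -0.109, -0.09 and -0.117), so no sign of pairing by number was seen. Deviations from a mean of 3 libraries constrain one another, so this check cannot exclude such a pairing. With the replicate block, edgeR called 4379 genes higher in embryonic and 4469 in adult cells, against 4722 and 4797 without it. The 5 tested genes kept their calls under the block, with 4.97 for Hbb-bs, 5.90 for Hbb-bt, 4.47 for Hba-a1, 5.07 for Hba-a2 and 5.11 for Alas2. The summed globin level gave a log2 ratio of 5.04 under the block (exact sign-flip p = 0.25, the smallest that 3 pairs allow).

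Of 408 counts of listed genes under alternatives, 370 stayed within 1.5 times of the count reported and 38 did not. Among these, the red cell membrane genes higher in embryonic cells numbered 8 among genes with at least 1 count. Other globins higher in adult cells numbered 1 with at least 1 CPM in 3 libraries. Red cell enzymes and late erythroid genes higher in adult cells numbered 2 or 3 in 5 alternatives. Depth limits the genes with few reads: in adult libraries Hbb-y, Hba-x and Slc4a1 were at 0, and a count of 0 allows up to 3 reads over the group.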
